A study of Mus musculus with 18 samples.

Results

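The genes described here are 40 cell cycle genes, chosen by symbol as genes of DNA replication or of mitosis: 16 S phase genes and 24 mitotic genes, of 55416 genes in the deposited count table. All 40 passed the filter on low counts that left 17040 genes to test. They were followed in monocytes sorted from the spleens of C57BL/6 (WT), Dectin-1 knockout and FcgRIIb knockout mice. Clec7a encodes Dectin-1, a lectin receptor for fungal glucans, and Fcgr2b encodes FcgRIIb, the inhibitory Fc receptor for immunoglobulin G. The labels describe both knockouts as null (-/-) animals, and mice of each genotype received PBS or IVIg (intravenous immunoglobulin, a preparation of pooled human immunoglobulin G), with day 3 as the time point. The 6 groups were thus WT with PBS, WT with IVIg, Dectin-1 knockout with PBS, Dectin-1 knockout with IVIg, FcgRIIb knockout with PBS and FcgRIIb knockout with IVIg. Each holds 3 independent mice per the series' design text, with 1 library a mouse, 18 in all. No age of the mice was found in the labels.

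Dividing cells switch on replication and mitosis genes in turn. The retinoblastoma proteins hold E2F factors back in resting cells, and their release lets E2F raise the genes that license origins and make DNA and its precursors. Genes of the mitotic apparatus come later, and in resting cells the DREAM complex keeps them low through a promoter element called the cell cycle genes homology region (CHR), often beside CCAAT boxes bound by NF-Y. Blood monocytes divide little once they have left the bone marrow, so their cell cycle RNA is usually low, and a few cycling cells can supply much of it. In bulk RNA a change in the share of cycling cells and a change in RNA per cell cannot be told apart.

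The promoter letters are shown first because they compare the S phase and mitotic genes without using expression. RefSeq promoter windows of 300 bases (build GRCm38.p6) matched 33 of the 40 genes, 13 S phase and 20 mitotic. Mcm4, Gins2, Exo1, Ccna2, Aurkb, Tpx2 and Kif20a were not matched. The CHR letters TTTGAA, searched on both strands, lay in 15 of 20 mitotic windows (75%), against 1 of 13 S phase windows (7.69%, Mcm2) and 18.1% of the first windows of all 27025 symbols. In 14 of the mitotic genes a copy began within 50 bases of the start. The CCAAT box lay in 18 of 20 mitotic windows (90%), 9 of 13 S phase windows (69.2%) and 37.9% of all. Both together lay in 15 of 20 mitotic windows against 7.12% of all. The E2F letters TTTCGCGC or TTTGGCGC lay in 5 of 13 S phase windows (38.5%), those of Mcm3, Mcm5, Mcm6, Mcm7 and Cdt1. They lay in 1 mitotic window (5%, Cdk1) and in 0.833% of all. A match describes the letters of the window and is not a measured binding site.

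Stretches of 3 mitotic promoters show the CHR and CCAAT letters, each 200 bases on the minus strand, from 190 before the start to 10 after it. Those of Ccnb2 (chr9:70421545-70421744), Cdk1 (chr10:69352903-69353102) and Mki67 (chr7:135716370-135716569) are printed 5' to 3', with capitals for the CHR letters and for the CCAAT box on either strand. The Cdk1 copy of the E2F letters, whose first base is at -131 from the start, is left in lower case. These promoters were picked after their letters had been seen, so the counts over all matched genes, not the examples, describe the families.
Ccnb2: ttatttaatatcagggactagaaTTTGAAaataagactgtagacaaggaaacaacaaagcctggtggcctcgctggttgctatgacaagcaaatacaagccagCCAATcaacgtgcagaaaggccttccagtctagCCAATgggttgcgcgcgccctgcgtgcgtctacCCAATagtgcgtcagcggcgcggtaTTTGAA
Cdk1: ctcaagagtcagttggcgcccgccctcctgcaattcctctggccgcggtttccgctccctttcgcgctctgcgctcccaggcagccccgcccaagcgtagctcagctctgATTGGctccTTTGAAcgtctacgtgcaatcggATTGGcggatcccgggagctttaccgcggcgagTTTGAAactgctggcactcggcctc
Mki67: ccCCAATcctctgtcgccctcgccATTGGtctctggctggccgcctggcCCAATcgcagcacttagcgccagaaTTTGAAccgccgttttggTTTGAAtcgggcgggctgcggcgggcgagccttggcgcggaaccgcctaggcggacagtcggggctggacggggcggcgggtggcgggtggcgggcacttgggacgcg

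In 2 helicase genes the E2F letters stand in capitals, in stretches of the same length. Mcm5 lies on the plus strand (chr8:75109319-75109518) and Mcm6 on the minus strand (chr1:128359696-128359895). The C form on one strand and the G form on the other overlap in both, and the longer capital run of Mcm6 is the reverse complement of that of Mcm5.
Mcm5: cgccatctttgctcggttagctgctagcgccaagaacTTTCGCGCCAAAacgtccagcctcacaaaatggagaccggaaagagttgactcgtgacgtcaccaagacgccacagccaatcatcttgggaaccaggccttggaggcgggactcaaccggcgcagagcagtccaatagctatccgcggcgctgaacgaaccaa
Mcm6: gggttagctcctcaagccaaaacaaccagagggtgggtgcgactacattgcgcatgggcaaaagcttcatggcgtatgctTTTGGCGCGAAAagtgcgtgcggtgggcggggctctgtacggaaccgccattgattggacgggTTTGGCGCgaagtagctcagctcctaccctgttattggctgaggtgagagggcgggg

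Depth was 16996494 to 48958909 counts in 17 libraries but 719494 in the shallow one, FcgRIIb knockout PBS replicate 2. There 3 counts correspond to 4.24 CPM (counts scaled to the size of the library), against at most 0.186 CPM elsewhere, and 23 of the 40 genes had no count, 18 of them mitotic. It was kept in the tests, while levels below are over the 17 deep libraries unless it is named. Of 153 pairs of libraries the most alike (Spearman 0.988) joined replicate 3 of WT with PBS to replicate 1 of WT with IVIg, although their treatments differ. A code in the titles, whose meaning the labels do not give, is shared by replicates 2 and 3 of the Dectin-1 knockout with PBS, by replicates 1 and 2 of the FcgRIIb knockout with PBS, and by replicate 3 of WT with IVIg and replicate 3 of the FcgRIIb knockout with PBS. That these are separate mice thus rests on the design text. Clec7a stood at 0.247 to 4.05 CPM in Dectin-1 knockouts and at 360.4 to 956 CPM in the other 12 libraries, where the 956 is the shallow one. Fcgr2b stood at 129.9 to 233.8 CPM in the deep FcgRIIb knockouts, at 249.9 in the shallow one and at 208 to 318 CPM elsewhere, and these ranges overlap. The labels do not say which exons the FcgRIIb allele lacks, so that level does not check them. Of the monocyte markers, Csf1r stood at 1837 to 2795 CPM, Ly6c2 of classical monocytes at 253 to 916 CPM and Nr4a1 of non-classical ones at 395 to 725 CPM, so markers of both kinds were present in every deep library.

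S phase genes were more abundant than mitotic genes and varied less between mice. Per kilobase of exon, the scale used for levels between genes, the median S phase gene stood at 2.20 CPM per kilobase and the median mitotic gene at 0.506, with nearly equal median exon lengths of 4342.5 and 4346 bases. In CPM, 9 of 16 S phase genes had a median of at least 10, against 4 of 24 mitotic genes, and 2 S phase and 10 mitotic genes lay under 2 CPM. The median SD of log2 CPM within groups was 0.42 for S phase and 0.91 for mitotic genes. Part of that gap goes with level. At 10 CPM or more it was 0.33 for the 9 S phase and 0.42 for the 4 mitotic genes, beside 0.29 for all tested genes, and at 2 to 10 CPM it was 0.60 and 0.75, beside 0.52. Below 2 CPM it was 0.70 for the 2 S phase genes, 1.40 for the 10 mitotic genes and 1.22 for all.

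**Figure D1:**
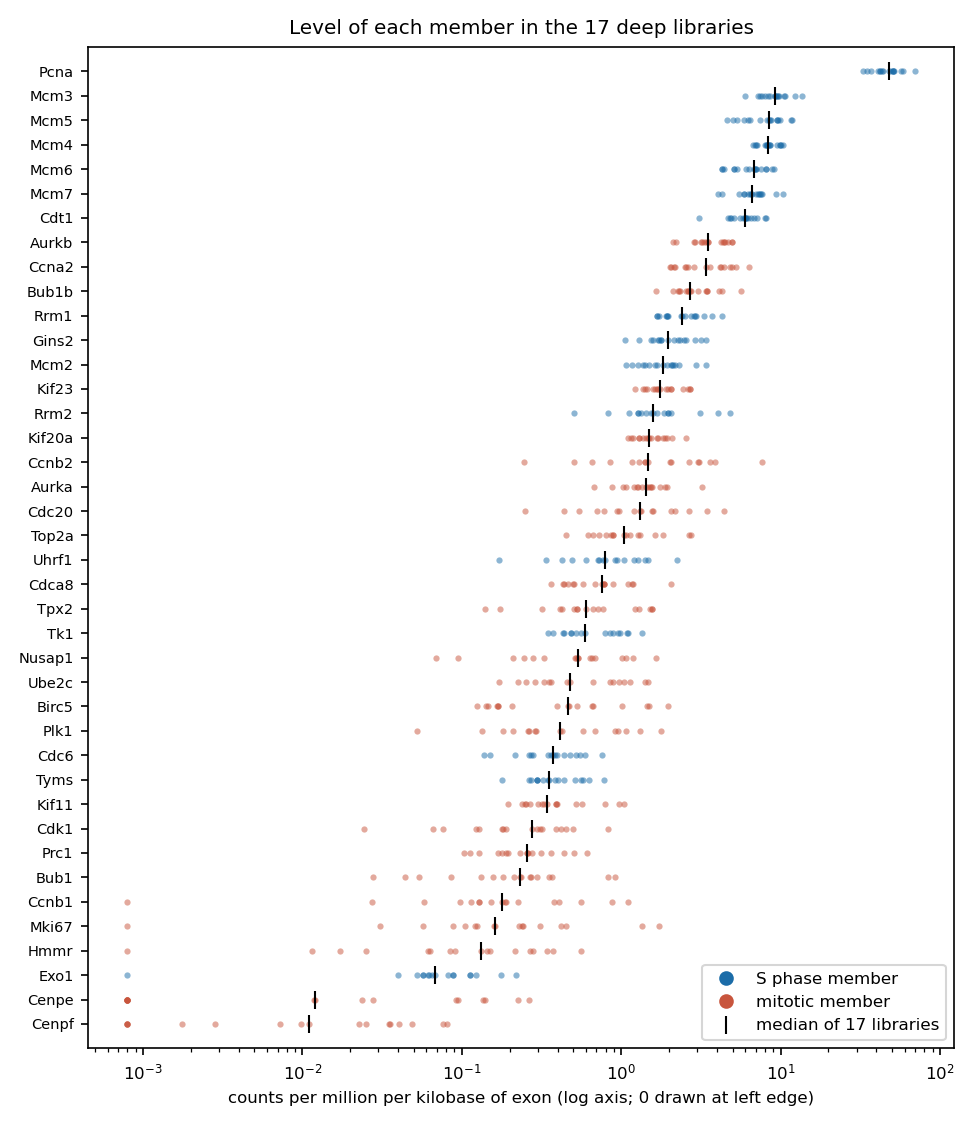
Level of each gene in the 17 deep libraries, in CPM per kilobase of exon on a log axis, in order of the median. Points are libraries (blue S phase, red mitotic), black ticks are medians and values of 0 are drawn at the left edge. Pcna leads at 48.2 CPM per kilobase, most helicase genes follow, and the lowest genes, Cenpe and Cenpf, are mitotic.

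The replication machinery headed the order. Pcna, the sliding clamp that holds DNA polymerase on its template, had a median of 48.2 CPM per kilobase. The MCM helicase subunits came next, Mcm3 at 9.24, Mcm5 at 8.49, Mcm4 at 8.30, Mcm6 at 6.80 and Mcm7 at 6.63 CPM per kilobase. Mcm2, of the same complex, stood lower at 1.84. Cdt1, which loads the helicase onto origins together with Cdc6, stood at 6.03 CPM per kilobase and Cdc6 at 0.372. The nucleotide enzymes followed: Rrm1 at 2.43 and Rrm2 at 1.58, the subunits of ribonucleotide reductase, Tk1 (thymidine kinase) at 0.595 and Tyms (thymidylate synthase) at 0.353. The rest were Gins2, a part of the active helicase, at 1.96, Uhrf1, which guides maintenance DNA methylation, at 0.798, and Exo1, a repair exonuclease, at 0.0681 CPM per kilobase. Of the exon bases of Gins2 67.3% overlap Gse1 on the other strand, and counting did not use strand, so its reads cannot be told from those of Gse1.

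Among mitotic genes the kinase Aurkb led at 3.52 CPM per kilobase, followed by the cyclin Ccna2 at 3.40 and the spindle checkpoint kinase Bub1b at 2.72. The cytokinesis kinesins Kif23 and Kif20a stood at 1.76 and 1.50, Ccnb2 at 1.47, Aurka at 1.44, the anaphase activator Cdc20 at 1.31 and Top2a, the topoisomerase that untangles chromosomes, at 1.04. All other mitotic genes lay below 1 CPM per kilobase. They were Cdca8 at 0.759 and Birc5 at 0.461, partners of Aurkb in the chromosomal passenger complex, the spindle proteins Tpx2 at 0.606, Nusap1 at 0.536, Kif11 at 0.341, Prc1 at 0.256 and Hmmr at 0.132, and Ube2c, which works with Cdc20, at 0.476. Plk1 stood at 0.413, Cdk1, the kinase that drives entry into mitosis, at 0.276, its cyclin Ccnb1 at 0.178, the checkpoint kinase Bub1 at 0.231 and the proliferation marker Mki67 at 0.163. The kinetochore genes Cenpe and Cenpf came last at 0.0120 and 0.0110 CPM per kilobase, listed at 0 in 7 and 4 of the 17 libraries. Exons overlap an opposite gene over 29.3% of bases in Kif20a (Cdc23), 22.8% in Ube2c (Tnnc2), 12.5% in Ccna2 (Exosc9) and 11.1% in Prc1 (Rccd1), so reads there cannot be told apart either.

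Summed over genes, S phase levels ran from 279 CPM (WT PBS replicate 1) to 481 CPM (FcgRIIb knockout IVIg replicate 2), a ratio of 1.73. Mitotic levels ran from 70.3 to 204 CPM in the same libraries, a ratio of 2.90. FcgRIIb knockout IVIg replicate 2 was the highest of the 17 libraries for 15 of 24 mitotic and 8 of 16 S phase genes. Dectin-1 knockout IVIg replicate 2 came next for the mitotic sum at 177 CPM and was among the 3 highest for 18 mitotic but 5 S phase genes, whereas WT IVIg replicate 2 was among them for 9 S phase and 5 mitotic genes, with sums of 456 and 123.6 CPM. Each IVIg group thus had 1 library above its others in both sums. On the mean of log2 CPM, which gives each gene the same weight, the libraries ran from 2.85 to 4.10 for S phase and from 0.30 to 2.62 for mitotic genes, with FcgRIIb knockout PBS replicate 3 lowest. The mitotic sum was 44.5% of the S phase sum in Dectin-1 knockout IVIg replicate 2 and 42.3% in FcgRIIb knockout IVIg replicate 2, against a median of 30.2% over the 17 libraries.

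**Figure D2:**
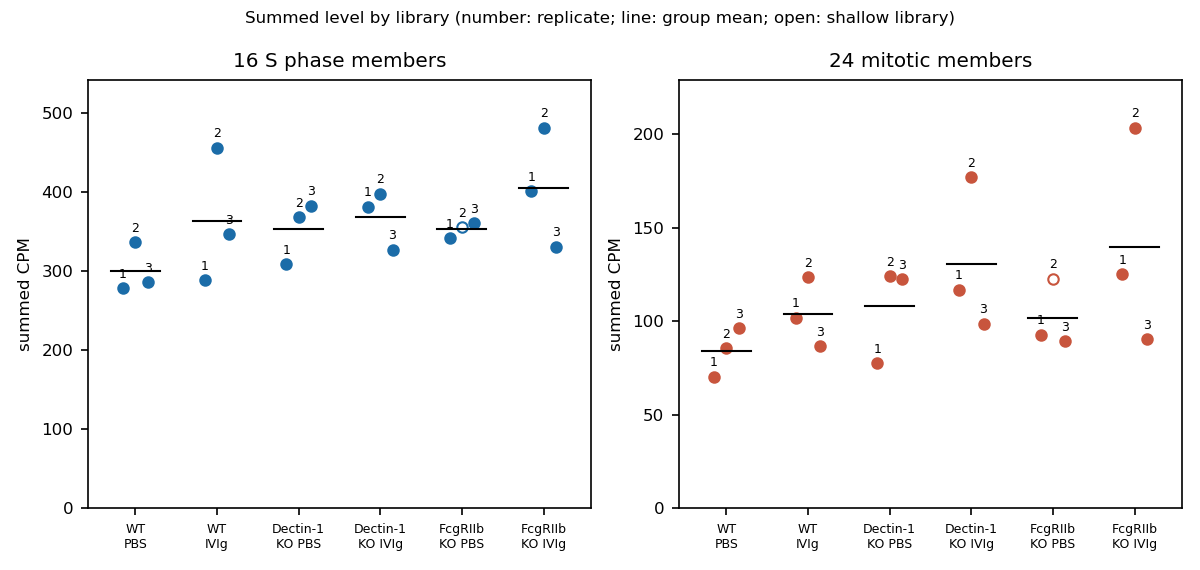
Summed CPM of the 16 S phase genes (left) and the 24 mitotic genes (right) in each library, by group. Numbers are replicates, lines are group means and the open point is the shallow library. Replicate 2 is the highest of each IVIg group in both panels, at 204 CPM for mitotic genes in the FcgRIIb knockout.

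Markers of other cells stood apart in the same libraries. All 7 plasma cell markers had counts in FcgRIIb knockout IVIg replicate 2, as in the other deep FcgRIIb knockouts and in WT IVIg replicate 3. In FcgRIIb knockout IVIg replicate 2 they summed to 752 CPM, of which Jchain gave 616.5. The other 16 deep libraries reached at most 268 CPM. The plasma cell sum was 233 to 752 CPM over the 3 libraries of that group, 239 to 888 in FcgRIIb knockouts with PBS (888 in the shallow library) and 59.5 to 200.4 in WT. In WT PBS replicate 1 most of the sum, 100.2 of 133 CPM, came from Irf4. Tnfrsf17, a defining plasma cell receptor, was at 3.34 CPM in FcgRIIb knockout IVIg replicate 2 and at 0 in 11 of the 17. The erythroid sum of 51.5 CPM and T cell sum of 61.1 CPM in FcgRIIb knockout IVIg replicate 2 were also the highest. Rhag of red cells, however, was at 0 in all 17 and Gata1 in 15. Replicate 1 of the same group held 46.5 CPM of erythroid markers, with a mitotic sum of 125 CPM.

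In Dectin-1 knockout IVIg replicate 2 the 6 neutrophil markers summed to 1228 CPM and the 6 granulocyte precursor markers to 51.0 CPM, all with counts, against 48.6 to 483 and 10.9 to 27.1 CPM in the other mice of its group. The Dectin-1 knockouts with PBS held 11.8 to 39.0 and 9.88 to 15.2 CPM. The B cell sum of Dectin-1 knockout IVIg replicate 2, 94.3 CPM, was also the highest of the 17, beside a median of 40.4 CPM. WT IVIg replicate 2 held 45.0 CPM of neutrophil markers, against 3.63 and 6.48 CPM in the other WT mice with IVIg. That was only 7th of the 17, beside a median of 38.0 CPM, and WT with PBS held 2.58 to 38.0 CPM. Its 4.18 CPM of precursor markers were the lowest of the 17. Its progenitor sum of 274 CPM, mostly Flt3, was the highest of the 17, its T cell sum of 50.3 CPM the second highest and its classical monocyte sum of 5172 CPM the lowest. The part of these cells in the sums was not tested.

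Proliferation markers did not rank the libraries alike. Mki67 stood at 0.574, 1.22 and 17.4 CPM in WT with PBS and at 13.6, 1.25 and 0.311 in WT with IVIg. It stood at 2.42, 4.22 and 0.893 CPM in Dectin-1 knockouts with PBS and at 1.05, 2.42 and 4.51 with IVIg. In FcgRIIb knockouts it stood at 1.64, 0 and 0 CPM with PBS, the shallow library being one of the zeros, and at 2.32, 3.11 and 1.61 with IVIg. Thus 2 WT libraries lay above all 15 others, which reached at most 4.51 CPM, and these are the most alike pair of libraries. Kif23 (21.3 and 21.4 CPM against at most 20.9) and Cenpe (2.29 and 1.94 against at most 1.21) were also highest there, but no other of the 40 genes was highest in both. Cdk1 was lowest in that pair, at 0.120 and 0.328 CPM. Outside the 40, the replication genes Dnmt1 (63.7 and 74.7 CPM against at most 44.5) and Rfc1 were among those also highest in that pair. So were the mitotic genes Smc4 (59.3 and 72.1 CPM against at most 44.0), Hjurp and Incenp. The sum of 52 other mitotic genes, however, was the lowest of the 17 in WT PBS replicate 3.

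Top2a stood at 5.63, 9.35 and 7.28 CPM in WT with PBS, at 9.65, 11.9 and 6.53 in WT with IVIg and at 5.97, 11.6 and 14.7 in Dectin-1 knockouts with PBS. With IVIg the Dectin-1 knockouts gave 16.6, 23.9 and 8.07 CPM. The FcgRIIb knockouts gave 10.3, 35.3 (shallow library) and 4.05 CPM with PBS and 7.79, 24.7 and 8.06 with IVIg. Replicate 2 was again the high one of each IVIg group, and with PBS its group values overlapped those of every other genotype.

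Pcna stood at 97.7, 116 and 79.0 CPM in WT with PBS, at 83.9, 137 and 122 in WT with IVIg, and at 102, 105 and 121 in Dectin-1 knockouts with PBS. It stood at 124, 118 and 88.5 CPM in Dectin-1 knockouts with IVIg, at 101, 124 (shallow library) and 167 in FcgRIIb knockouts with PBS and at 140.3, 121 and 104 with IVIg. The groups overlapped, and the highest value came from FcgRIIb knockout PBS replicate 3, whose Top2a was the lowest of the 17. Mcm5 stood at 18.4, 25.8 and 21.3 CPM in WT with PBS, at 25.1, 46.8 and 38.2 in WT with IVIg and at 20.0, 34.5 and 34.6 in Dectin-1 knockouts with PBS. It stood at 29.6, 38.3 and 37.7 CPM in Dectin-1 knockouts with IVIg, at 33.9, 26.8 (shallow library) and 39.8 in FcgRIIb knockouts with PBS and at 32.8, 46.2 and 23.7 with IVIg. WT with PBS reached at most 25.8 CPM of Mcm5. Both deep FcgRIIb knockouts with PBS lay above that, and the 26.8 CPM of the shallow one rest on 19 counts.

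**Figure D3:**
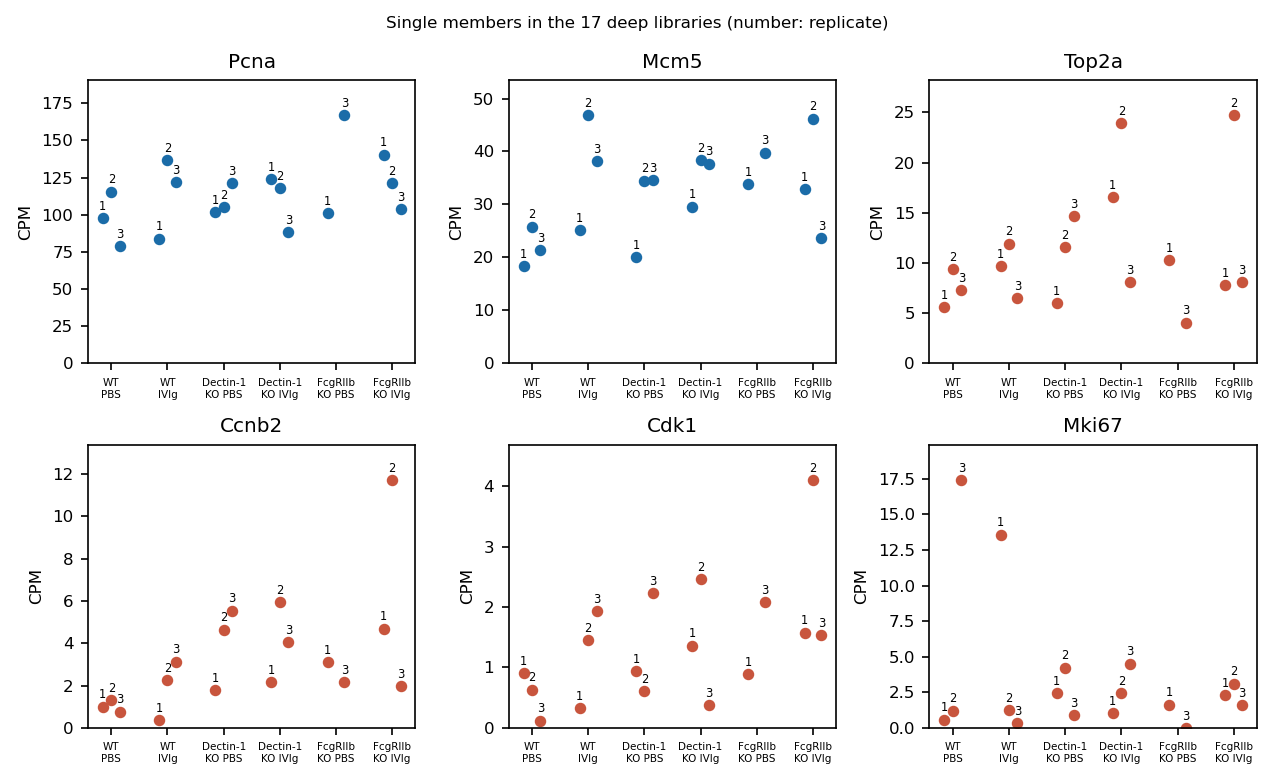
CPM of Pcna and Mcm5 (S phase, blue) and Top2a, Ccnb2, Cdk1 and Mki67 (mitotic, red) in the 17 deep libraries, by group, with replicate numbers. Mki67 is at 17.4 and 13.6 CPM in 2 WT libraries where Cdk1 is at 0.120 and 0.328 CPM, and Top2a, Ccnb2 and Cdk1 are high in FcgRIIb knockout IVIg replicate 2.

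Over the 17 libraries 6 pairs of genes were compared on log2 CPM, with two-sided permutation p-values adjusted over the 6. Pcna and Tyms varied together (Pearson's r 0.67, adjusted permutation p = 0.0211, Spearman's rho 0.77, adjusted permutation p = 0.00318, and r 0.83 without the 2 libraries farthest from the Pcna median). With group means taken out r was 0.74. Mki67 and Cdk1 ran opposite (r -0.605, adjusted permutation p = 0.0327), but rho was -0.50 (adjusted permutation p = 0.102) and r -0.46 without the 2 farthest libraries. With a prior count of 0.5 in place of 2 that r was -0.56 (adjusted permutation p = 0.0676). With group means taken out it was -0.78 (adjusted permutation p = 0.00174), and -0.64 without the 2 farthest. That p tends to be too small, since values were permuted freely over the libraries after the group means had been removed. The most alike pair of libraries holds the 2 highest Mki67 and the 2 lowest Cdk1 values. Mcm2 and Mcm5, of 1 helicase, gave r 0.49 and rho 0.48 (adjusted permutation p = 0.0903 and 0.102), with r 0.59 without the 2 farthest. Mki67 and Top2a gave r 0.34 and rho 0.23 (adjusted permutation p = 0.27 and 0.526), Mki67 and Mcm5 r -0.26 and rho -0.17 (0.381 and 0.526), and Top2a and Pcna r 0.05 and rho 0.16 (0.835 and 0.526). Without the 2 farthest libraries these 3 gave r 0.20, 0.04 and -0.06.

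The groups were then compared in 12 ways with edgeR's quasi-likelihood test, adjusted over all 17040 genes, and none of the 40 genes passed an adjusted p of 0.05 in any of them. DESeq2 called 1 of them in 1 comparison (Ccna2, below), and limma voom called none. Comparisons of a genotype or treatment share control libraries, so their values are set side by side and not counted as separate support. The p-values set a difference against the spread between mice within groups. That spread was estimated over all 6 groups together, with the shallow library included.

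**Figure D4:**
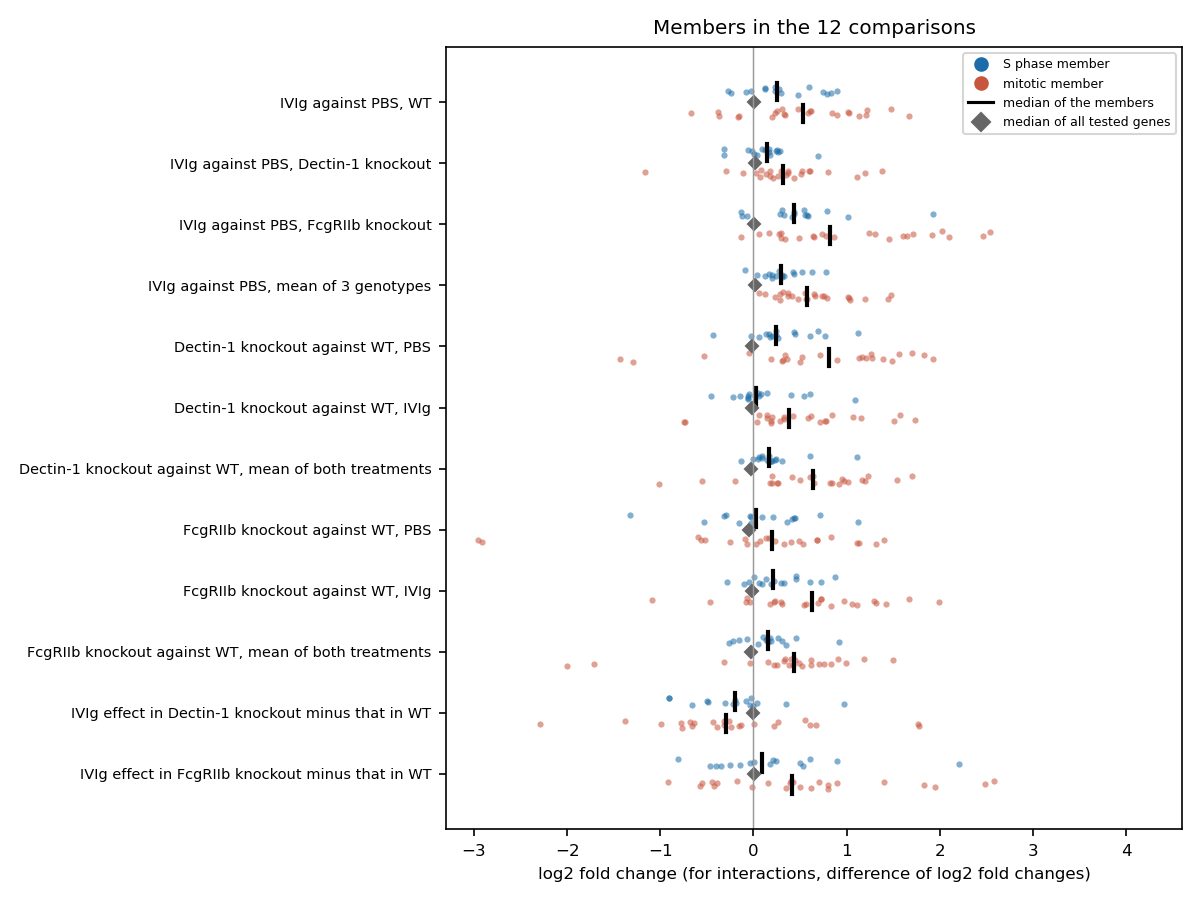
Log2 fold changes of the 40 genes in the 12 comparisons (blue S phase, red mitotic). Black bars are medians of the genes and grey diamonds the median of all tested genes. With IVIg over 3 genotypes the mitotic median is 0.57 and the S phase median 0.29, beside 0.02 for all genes.

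IVIg was compared with PBS within each genotype and over the mean of the 3. Over the mean, 0 of 40 genes passed, as did 0% of all genes, and the lowest adjusted p was 1. Nevertheless 24 of 24 mitotic and 15 of 16 S phase genes had a log2 fold change above 0, against 54.5% of all genes, with a median of 0.57 for mitotic genes, 0.29 for S phase genes and 0.02 for all genes. At an unadjusted p under 0.05 there were 5 genes, all mitotic and higher, against 2.31% of all genes. They were Tpx2 (log2 fold change 1.19 ± 0.35 SE, unadjusted p = 0.00274), Plk1 (1.44 ± 0.43, unadjusted p = 0.00368), Cdc20, Nusap1 and Ccnb1. The S phase gene with the smallest p was Mcm7 (0.33 ± 0.16, unadjusted p = 0.0527). Top2a had a log2 fold change of 0.56 ± 0.32, Mcm5 of 0.31 ± 0.17, Mki67 of 0.42 ± 0.79 and Pcna of 0.04 ± 0.14. Without FcgRIIb knockout IVIg replicate 2 the mitotic median was 0.31 with 23 of 24 above 0, and without Dectin-1 knockout IVIg replicate 2 it was 0.35. Without the shallow library it was 0.62, and without the most alike pair 0.64 with 22 of 24 above 0. Over all single libraries left out it was 0.31 to 0.75, with 20 to 24 above 0.

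Tpx2, which activates Aurka at the spindle, stood at 0.656, 2.49 and 0.819 CPM in WT with PBS and at 2.84, 6.04 and 2.49 with IVIg. In Dectin-1 knockouts it stood at 1.48, 5.71 and 2.38 CPM with PBS and at 7.05, 7.28 and 3.35 with IVIg. In FcgRIIb knockouts it stood at 1.98, 0 (shallow library) and 1.93 CPM with PBS and at 3.60, 7.29 and 3.14 with IVIg. The groups of WT met at 2.49 CPM, those of the Dectin-1 knockout overlapped and those of the FcgRIIb knockout did not.

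Plk1, a kinase active from mitotic entry to exit, stood at 0.464, 0.632 and 0.578 CPM in WT with PBS and at 0.398, 1.52 and 0.577 with IVIg, where 1 mouse alone was high. In Dectin-1 knockouts it stood at 0.909, 1.27 and 0.930 CPM with PBS and at 2.35, 2.88 and 2.01 with IVIg, without overlap. In FcgRIIb knockouts it stood at 0.648, 0 (shallow library) and 0.116 CPM with PBS and at 0.296, 3.90 and 2.10 with IVIg. Most of these rest on few reads, from 3 to 133 counts in the deep libraries.

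Within WT, 0 of 40 genes passed (0.00587% of all genes did), and 3 had an unadjusted p under 0.05, against 2.52% of all. These were Mcm5 (0.75 ± 0.28, unadjusted p = 0.0148), Rrm1 (0.60) and Tpx2 (1.48 ± 0.58, unadjusted p = 0.0197). The S phase median was 0.25 and the mitotic one 0.53, with 12 of 16 and 19 of 24 genes above 0 (51.1% of all genes). Without WT IVIg replicate 2 the medians were 0.023 and 0.16, and no gene had an unadjusted p under 0.05. Mcm7 and Prc1 did not overlap between the groups (2 of 40 higher, 3.44% of all genes). Mcm7 stood at 19.0, 28.4 and 24.4 CPM with PBS and at 29.0, 41.8 and 29.4 with IVIg. Markers of both monocyte kinds moved with this comparison without overlap. Non-classical markers summed to 4900 to 6521 CPM with PBS and 7165 to 8479 CPM with IVIg, with 8 of 8 above 0, 4 of them at an unadjusted p under 0.05. Classical markers summed to 10050 to 18194 and 5172 to 9949 CPM, with 7 of 8 below 0. Their part in the result was not tested.

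Within Dectin-1 knockouts 0 of 40 passed (0% of all genes), and 0 had an unadjusted p under 0.05 (3.26% of all). The medians were 0.14 for S phase genes, with 12 of 16 above 0, and 0.32 for mitotic genes, with 21 of 24 above 0, against 53% of all genes. The mitotic one was -0.028 without Dectin-1 knockout IVIg replicate 2. The S phase gene with the smallest p was Rrm1 (-0.32 ± 0.27, unadjusted p = 0.261) and the mitotic one was Plk1 (1.20 ± 0.59, unadjusted p = 0.0583). Plk1 and Kif23 did not overlap between the groups (2 of 40 higher, 4.37% of all). All 6 neutrophil markers had an unadjusted p under 0.05 here, all higher with IVIg, and their part was not tested.

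Within FcgRIIb knockouts 0 of 40 passed (0% of all genes), and 4 mitotic genes had an unadjusted p under 0.05 (3.19% of all), Plk1 (2.53 ± 0.88, unadjusted p = 0.00985), Birc5 (2.03), Cdc20 (1.71) and Nusap1 (1.65). The mitotic median of 0.82, with 23 of 24 above 0 (51.1% of all genes), rests on FcgRIIb knockout IVIg replicate 2, the library with the highest plasma cell markers. Without it the median was 0.21, 15 of 24 genes were above 0 and no gene had an unadjusted p under 0.05. The S phase median was 0.43, with 13 of 16 above 0, and 0.16 without that library, and the S phase gene with the smallest p was Exo1 (1.93 ± 0.97, unadjusted p = 0.0602). Exo1 stood at 0.546, 0 and 0 CPM with PBS and at 1.04, 1.85 and 0.441 with IVIg, and 1 of these zeros is the shallow library. Ccnb1, Tpx2, Bub1, Kif20a and Nusap1 did not overlap between the groups (5 of 40 higher, 5.76% of all genes). All 5 were at 0 in the shallow library, without which the medians of this comparison were 0.42 and 0.87 and 2 genes had an unadjusted p under 0.05. Classical monocyte markers did not overlap between these groups, with sums of 9968 to 11464 CPM with PBS and 7869 to 8928 CPM with IVIg. Their part in the values was not tested.

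The difference between IVIg effects was tested as an interaction. For Dectin-1 knockout against WT 0 of 40 genes passed (0% of all), and the 1 gene with an unadjusted p under 0.05 (3.75% of all) was Rrm1 (-0.91 ± 0.38, unadjusted p = 0.028). Rrm1, the large subunit of ribonucleotide reductase, stood at 18.4, 21.2 and 18.5 CPM in WT with PBS and at 19.0, 40.9 and 27.8 with IVIg. In Dectin-1 knockouts it stood at 26.3, 36.3 and 31.6 CPM with PBS and at 21.5, 32.4 and 21.3 with IVIg. The mitotic gene with the smallest p was Birc5, the survivin gene (-2.30 ± 1.15, unadjusted p = 0.0607). It stood at 0.574, 1.61 and 0.482 CPM in WT with PBS and 0.703, 3.44 and 1.80 with IVIg, and in Dectin-1 knockouts at 0.576, 5.07 and 2.27 with PBS and 0.495, 2.23 and 0.566 with IVIg. The medians were -0.19 for S phase and -0.29 for mitotic genes, with 3 of 16 and 8 of 24 above 0 (50% of all genes). Without WT IVIg replicate 2 they were 0.07 and 0.026, so their sign depends on that library. Over all single libraries left out the S phase median was -0.39 to 0.07 and the mitotic one -0.85 to 0.026. The lowest mitotic value came without Dectin-1 knockout IVIg replicate 2.

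For FcgRIIb knockout against WT 0 of 40 passed the interaction (0% of all), and 0 had an unadjusted p under 0.05 (2.86% of all). The S phase gene with the smallest p was Mcm5 (-0.81 ± 0.41, unadjusted p = 0.0615) and the mitotic one was Bub1 (2.59 ± 1.26, unadjusted p = 0.0549). Bub1 stood at 0.683, 1.29 and 0.795 CPM in WT with PBS and at 0.234, 0.922 and 0.577 with IVIg. In FcgRIIb knockouts it stood at 1.02, 0 (shallow library) and 0.193 CPM with PBS and at 1.18, 4.01 and 1.61 with IVIg. Above 0 were 9 of 16 S phase and 16 of 24 mitotic genes (50.7% of all). The medians of 0.09 for S phase and 0.42 for mitotic genes were -0.23 and -0.27 without FcgRIIb knockout IVIg replicate 2, so their sign depends on that library.

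Between Dectin-1 knockout and WT mice with PBS, 14 of 16 S phase and 20 of 24 mitotic genes had a log2 fold change above 0 in the knockout, against 47.7% of all genes. The medians were 0.24 and 0.81, beside -0.02 for all genes, and 0 of 40 passed (0.0411% of all did, and the lowest adjusted p of the 40 was 0.909). The groups did not overlap for 13 genes, all higher in the knockout (7.92% of all genes): Tyms, Rrm1 and Cdc6 of S phase and Ccnb1, Ccnb2, Ccna2, Plk1, Aurka, Kif11, Cdc20, Ube2c, Hmmr and Nusap1 of mitosis. At an unadjusted p under 0.05 there were 5 (4.05% of all), Ccnb2 (1.93 ± 0.70, unadjusted p = 0.0126), Rrm1 (0.70 ± 0.27, unadjusted p = 0.0191), Cdc20, Cdc6 and Kif11. Ccnb2, a cyclin partner of Cdk1, stood at 1.01, 1.31 and 0.771 CPM in WT and at 1.79, 4.65 and 5.54 in the knockout. Knockout replicates 2 and 3 share a title code: without replicate 2 the mitotic median was 0.47 and 1 gene had an unadjusted p under 0.05, and without replicate 3 these were 0.53 and 5. Over the single libraries left out the mitotic median was 0.47 to 0.93, and without the most alike pair it was 0.89.

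Some marker sums moved with this comparison too. Erythroid markers summed to 4.67 to 9.32 CPM in WT with PBS and 13.6 to 17.5 CPM in the knockout, and granulocyte precursor markers to 5.80 to 8.63 and 9.88 to 15.2 CPM. T cell markers were lower in the knockout, at 9.23 to 18.6 against 20.5 to 34.8 CPM. The part of these cells in the result was not tested.

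With IVIg the same genotypes gave medians of 0.03 for S phase genes, with 9 of 16 above 0, and 0.38 for mitotic genes, with 22 of 24 above 0 (47.1% of all genes). Here 0 of 40 passed (0.0528% of all did), and 3 had an unadjusted p under 0.05 (3.45% of all), Plk1 (1.50 ± 0.58, unadjusted p = 0.0174), Cdc6 (1.09 ± 0.45, unadjusted p = 0.026) and Bub1. Only Cdc6 and Plk1 did not overlap between the groups (2 of 40 higher, 2.52% of all). All 6 neutrophil markers had an unadjusted p under 0.05, all higher in the knockout, and their part was not tested. Without the most alike pair the S phase median was -0.12 and the mitotic one 0.50. Without Dectin-1 knockout IVIg replicate 2 the mitotic median was 0.047, and no gene had an unadjusted p under 0.05. That library held the highest neutrophil, granulocyte precursor and B cell marker sums.

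Over both treatments 0 of 40 passed (0.0998% of all genes did, and the lowest adjusted p of the 40 was 0.873), and 7 had an unadjusted p under 0.05, all higher (3.5% of all). Above 0 were 14 of 16 S phase and 21 of 24 mitotic genes (45.4% of all), with medians of 0.17 and 0.64, and the mitotic one was 0.33 without Dectin-1 knockout IVIg replicate 2. Cdc6, the origin licensing factor, led (1.11 ± 0.33, unadjusted p = 0.00351), with Ccnb2 (1.54 ± 0.47, unadjusted p = 0.00366), Cdc20, Kif11, Plk1, Tpx2 and Aurka. Cdc6 stood at 0.792, 0.720 and 1.83 CPM in WT with PBS and at 1.12, 1.47 and 1.42 with IVIg. In the knockout it stood at 2.30, 2.89 and 2.01 CPM with PBS and at 2.72, 3.98 and 1.91 with IVIg, above all 6 WT values. Ccnb2 in the IVIg groups stood at 0.375, 2.25 and 3.13 CPM in WT and at 2.17, 5.93 and 4.07 in the knockout. Mki67 went the other way (-1.02 ± 0.76), but only with the most alike pair of WT libraries: without that pair its log2 fold change was 1.71.

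FcgRIIb knockout mice with PBS were compared with WT with 1 of their 3 libraries shallow. The medians were 0.03 for S phase and 0.20 for mitotic genes, beside -0.05 for all genes, with 8 of 16 and 16 of 24 above 0 (46.8% of all). They were 0.026 and 0.21 without the shallow library, and the mitotic one was -0.15 without FcgRIIb knockout PBS replicate 1. By the edgeR test 0 of 40 passed (0% of all). DESeq2 called Ccna2 (adjusted p = 0.0309), the cyclin of S phase and early mitosis, among 175 genes it called in all. Ccna2 stood at 8.22, 8.77 and 8.84 CPM in WT and at 10.5, 76.2 and 19.6 in the knockout, where the 76.2 CPM of the shallow library are 54 counts. With edgeR it had a log2 fold change of 1.11 ± 0.48 (unadjusted p = 0.0314) and Mcm5 one of 0.71 ± 0.30 (unadjusted p = 0.0292), the 2 genes with an unadjusted p under 0.05, against 9.65% of all genes. Rrm1, Mcm5, Cdc6, Ccna2 and Prc1 were higher without overlap (5 of 40, 3.63% of all) and Gins2 was lower (1 of 40, 7.95% of all). Some marker sums were also higher in the knockout without overlap. Dendritic cell markers summed to 202 to 213 CPM in WT and 330 to 395 CPM in the knockout. Plasma cell markers summed to 59.5 to 133 and 239 to 888 CPM, and erythroid markers to 4.67 to 9.32 and 12.5 to 25.4 CPM. The highest value of each is the shallow library. Their part in the result was not tested.

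With IVIg the medians were 0.20 for S phase and 0.62 for mitotic genes in FcgRIIb knockouts against WT, with 13 of 16 and 19 of 24 above 0 (48.1% of all genes). Again 0 of 40 passed (0.0117% of all did), and 4 mitotic genes had an unadjusted p under 0.05 (5.44% of all), Ccnb2 (1.67 ± 0.60, unadjusted p = 0.0121), Bub1 (1.99 ± 0.74, unadjusted p = 0.0144), Plk1 and Nusap1. The S phase gene with the smallest p was Cdt1 (0.45 ± 0.29, unadjusted p = 0.135). Cdt1 stood at 15.2, 19.7 and 15.4 CPM in WT and at 25.4, 25.0 and 18.9 in the knockout. Ccnb2 stood at 4.68, 11.7 and 1.97 CPM in the knockout, and Bub1 alone did not overlap (1 of 40 higher, 5.76% of all). Several marker lists moved with this comparison. NK cell markers summed to 3.51 to 4.19 CPM in WT and 7.16 to 20.2 CPM in the knockout, with 6 of 6 above 0. Non-classical monocyte markers summed to 7165 to 8479 and 5372 to 6122 CPM, with 8 of 8 below 0. B cell markers summed to 28.9 to 38.2 and 40.7 to 53.6 CPM, and plasma cell markers to 98.2 to 200.4 and 233 to 752 CPM. Of 8 T cell markers 7 had an unadjusted p under 0.05, as had 5 of 7 tested erythroid and 3 of 7 plasma cell markers, all higher, though the summed levels of the T cell and erythroid lists overlapped. Their part was not tested. Without FcgRIIb knockout IVIg replicate 2 the medians were -0.0067 and 0.0079, and no gene had an unadjusted p under 0.05.

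Over both treatments 0 of 40 passed (0.088% of all did, and the lowest adjusted p of the 40 was 0.399), with medians of 0.15 and 0.44 and with 12 of 16 and 20 of 24 above 0 (47.7% of all). The 4 genes with an unadjusted p under 0.05, against 12.3% of all, were Ccnb2 (1.49 ± 0.52, unadjusted p = 0.00928), Ccna2 (0.84 ± 0.32, unadjusted p = 0.016), Cdc6 (0.92 ± 0.37, unadjusted p = 0.021) and Aurkb. That share is no larger than the background. Plasma cell markers did not overlap between the genotypes, at 59.5 to 200.4 CPM in the 6 WT and 233 to 752 CPM in the 5 deep knockout libraries, and at 888 CPM in the shallow one. Their part in the result was not tested. Without FcgRIIb knockout IVIg replicate 2 the mitotic median was 0.11.

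Other genes of the same pathways gave smaller medians in the IVIg comparison. Of 45 other replication genes (origin recognition, polymerases, clamp loader, GINS and others), 0 passed in either direction in any of the 12 comparisons. Over the mean of the genotypes their median log2 fold change with IVIg was 0.11, with 31 above 0 and 14 below. Of 52 other mitotic genes 0 passed in any comparison, and with IVIg their median was 0.35, with 45 above 0 and 7 below. Of 37 tested cell cycle regulators (E2F and retinoblastoma families, DREAM subunits, cyclins, kinases and their inhibitors), 0 passed in any comparison, and their median was 0.05, with 26 above 0 and 11 below. For Dectin-1 knockout against WT with PBS the medians of these 3 lists were 0.27, 0.42 and 0.02. FcgRIIb knockout IVIg replicate 2 also held the highest sum of the 52 mitotic genes, 531 CPM against a median of 459.6, but was 9th of 17 for the regulators.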

How the data were processed

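RNA from sorted monocytes of 18 mice was made into stranded messenger RNA libraries, per the labels' protocols. The submitters' processing notes name STAR and the build GRCm39. Per the file headers, featureCounts 2.0.2 counted reads per gene of Ensembl release 104 with no strand option. The authors deposited raw counts, which were used as they stand. A further 18 columns could not be tied to a sample and were left aside. The 1492 genes with no symbol took 0.125% to 0.45% of each library's counts and stayed in the totals. Groups come from the genotype and treatment labels, and replicate numbers only name libraries.

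After filterByExpr and TMM scaling, genes were tested by edgeR's quasi-likelihood method (edgeR 4.0.16 in R 4.3.3, non-legacy fit) in 1 model of 6 group means, with 12 residual degrees of freedom and Benjamini-Hochberg adjustment over the 17040 genes of a comparison (called under 0.05). CPM use TMM-scaled totals, and log2 CPM a prior count of 2. The test was checked on simulated counts, with changes placed in WT with IVIg and only in genes with a mean log2 CPM above 2. Recovery at the lower levels of many mitotic genes was thus not checked. Alternatives were DESeq2 1.42.0, limma 3.58.1 (voom with quality weights), RLE factors, 2 other low-count filters (none, and 1 CPM in 3 libraries), the legacy fit, a fit that left out mitochondrial, haemoglobin and immunoglobulin genes, a length correction, own groups, the most alike pair removed and each library removed. Pairs of genes were tested with 100000 permutations in Python 3.11.15 (numpy 2.4.6). The 40 genes, the gene and marker lists and the tests were chosen with earlier results of these data known. Named genes are Mki67, Top2a, Pcna and Mcm5, the S phase and the mitotic gene with the smallest p in each comparison, and others named for their level or overlap after their values were seen. Promoter letters come from a RefSeq table of another build than the counts, matched by symbol.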

Additional observations from a re-analysis of the deposited data

How the results depend on the processing

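Of 335 counts of genes passing, 334 stayed at 0 and 1 did not: DESeq2 called 1 gene, Ccna2, in FcgRIIb knockout against WT with PBS. Of 335 medians of mitotic genes 332, and of 335 medians of S phase genes 334, moved by less than the spread between mice (SD 0.60 and 0.29). The 4 exceptions are FcgRIIb comparisons without FcgRIIb knockout IVIg replicate 2. That spread is a wide limit for these medians, so a median could reach 0 or change sign and still lie within it. Without Dectin-1 knockout IVIg replicate 2 the mitotic median of IVIg against PBS in Dectin-1 knockouts went from 0.32 to -0.028. That of Dectin-1 knockout against WT with IVIg went from 0.38 to 0.047. With single libraries left out, the mitotic median of IVIg against PBS in FcgRIIb knockouts was 0.21 to 1.28, and that of FcgRIIb knockout against WT with IVIg was 0.0079 to 0.83. In the interaction of FcgRIIb knockout with IVIg the S phase median was -0.23 to 0.36 and the mitotic one -0.27 to 0.73.

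Single genes near 0 or led by the most alike pair changed sign. For Mki67, Dectin-1 knockout against WT over both treatments gave 1.71 without that pair, 1.20 with limma voom and -1.33 to 0.38 with single libraries left out, and FcgRIIb knockout against WT gave 0.70 without the pair. Its IVIg value over 3 genotypes was -0.46 to 3.04 with single libraries left out, where the highest value comes from a group left with no Mki67 count. For Pcna, Dectin-1 knockout against WT gave -0.10 without the pair, -0.015 with the length trend taken out, -0.055 with limma voom and -0.035 to 0.13 with single libraries left out, and its IVIg value was -0.033 to 0.13. Top2a in FcgRIIb knockout against WT was -0.051 to 0.63. The cause was not tested for any of these.

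With group means taken out, Mcm2 and Mcm5 gave r 0.56 (adjusted permutation p = 0.0408), but rho 0.55 (adjusted permutation p = 0.0518) and r 0.34 without the 2 farthest libraries. Both p-values tend to be too small, since values were permuted freely after the group means had been removed. The comparison over 3 genotypes has no fit on own groups only, since it uses all. No paired analysis was possible because replicate numbers were given in accession order. Depth limits the mitotic genes most: 23 of 40 genes have no count in the shallow library.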
